A study of Mus musculus with 4 samples.

Results

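The genes described here are 49 components of DNA replication and of nucleotide supply for S phase, chosen by symbol: the proteins that license origins, the helicase and its activators, the polymerases, the sliding clamp and its loader, the enzymes that process and join new strands, the enzymes that make deoxynucleotides, and proteins that travel with the fork. All 49 were listed in every library, among 17478 genes listed in at least 1 of the 4. The libraries were RNA sequencing libraries of mouse C57BL/6 CD4+ T cells, sorted as naive (CD44 low, CD62L high) from spleen and lymph nodes of animals 6 to 8 weeks old and cultured for 3 days with anti-CD3 and anti-CD28 under Th9 conditions, which favour helper cells that secrete interleukin 9. Of these, 2 came from mice with a T-cell-conditional deficiency of Bfar, labelled BFAR-/- (called knockout below), and 2 from wild-type mice. The sources used here name neither the Cre driver nor the number of mice behind a library. Nothing says that replicates were separate animals or cultures, so a p-value reflects the spread among these 4 libraries alone, and that spread may be technical.

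Replication begins when the origin recognition complex, with Cdc6 and Cdt1, loads MCM2-7 rings onto DNA in G1. In S phase Cdc45 and the GINS complex turn these rings into active helicases, polymerase alpha and primase lay down primers, and polymerases delta and epsilon copy the strands while held by the PCNA clamp. Naive T cells are quiescent and make most of this machinery only after activation, when E2F transcription factors switch on the genes for it together with those for ribonucleotide reductase, thymidylate synthase and other enzymes of deoxynucleotide supply.

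The libraries held 19321076 and 19058009 expected counts in knockout cells and 19782923 and 19736182 in wild-type cells. Bfar, which encodes a RING-domain E3 ligase in the membrane of the endoplasmic reticulum, had 2.88 and 2.57 FPKM (fragments scaled to transcript length and library depth) in knockout cells, against 12.1 and 11.2 FPKM in wild-type cells, so each library matched its label (log2 fold change -2.09 ± 0.09, SE; edgeR adjusted p = 5.38e-10). The 8 markers of CD4+ T cells were abundant in every library. Their summed levels were 1825 and 1759 FPKM in knockout cells and 1708 and 1707 FPKM in wild-type cells. Of the 8, 4 rose and 1 fell (edgeR adjusted p under 0.05), against 13.6% and 13.2% of all genes tested. Markers of other cells were low. The 2 CD8 T cell markers summed to between 6.54 and 7.46 FPKM per library, the 5 B cell markers to between 3.42 and 4.21, and the natural killer, myeloid and erythroid markers to at most 1.08 for each cell type, with Cd14 missing from the tables of both knockout libraries and of 1 wild-type library, and set to 0 there. The part of these markers in the results below was not tested.

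Lower levels in knockout cells ran through most of the replication list, by small amounts. Of the 49 genes, all of which passed the filter on low counts, 25 fell (51%), against 13.2% of all 12677 genes tested, and 1 rose, against 13.6% of all genes tested; in either direction 26.8% of all genes passed (edgeR quasi-likelihood test, Benjamini-Hochberg adjusted p under 0.05). The 25 falls lay between -0.12 and -0.27 on the log2 scale, a loss of 8.04% to 17.3%. Over the 49 genes the median log2 fold change of knockout over wild type was -0.15, against -0.00235 over all genes tested, and 47 of 49 values were negative. Both knockout libraries lay below both wild-type libraries in FPKM for 38 of the 49 genes, against 32.6% of all genes tested, and above them for 2, against 30.2%. In RNA from a whole culture, fewer cells in S phase and less of these RNAs per cell cannot be told apart.

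Fewer genes were called with any library left out, in the replication list and over all genes tested. Each such fit left 1 library in a group, so the drop cannot tell whether the calls rest on a particular library. The median log2 fold change of the list was -0.16 without knockout replicate 1 and -0.13 without knockout replicate 2. It was -0.18 without wild type replicate 1 and -0.12 without wild type replicate 2. Calls that held whichever library was left out were those of Cdc6, Mcm2, Fen1, Rrm2, Dut, Chaf1a and Pold1, 7 of the 26 called genes. The same 7 passed in every other setting tried except limma on FPKM with no filter on low values, in which Fen1 and Chaf1a alone passed. With DESeq2 in place of edgeR 12 genes fell and Pold1 rose; the calls lost were those of Orc1, Orc2, Mcm10, Cdc45, Gins4, Pola2, Pold3, Rfc2, Rfc5, Rpa2, Tyms, Tk1 and Clspn (DESeq2 adjusted p between 0.0545 and 0.357). With no filter on low counts edgeR called 16 as lower, and the calls lost were those of Orc1, Mcm3, Mcm10, Gins4, Pola2, Pold3, Rfc2, Rpa2 and Tyms (adjusted p between 0.0536 and 0.161). Over all genes, 1569 were called in either direction with DESeq2 and 1928 with no filter, against 3398 as reported. The share of all genes that fell or rose was not computed under these other settings. How the list compares with all genes there is therefore not shown.

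**Figure D1:**
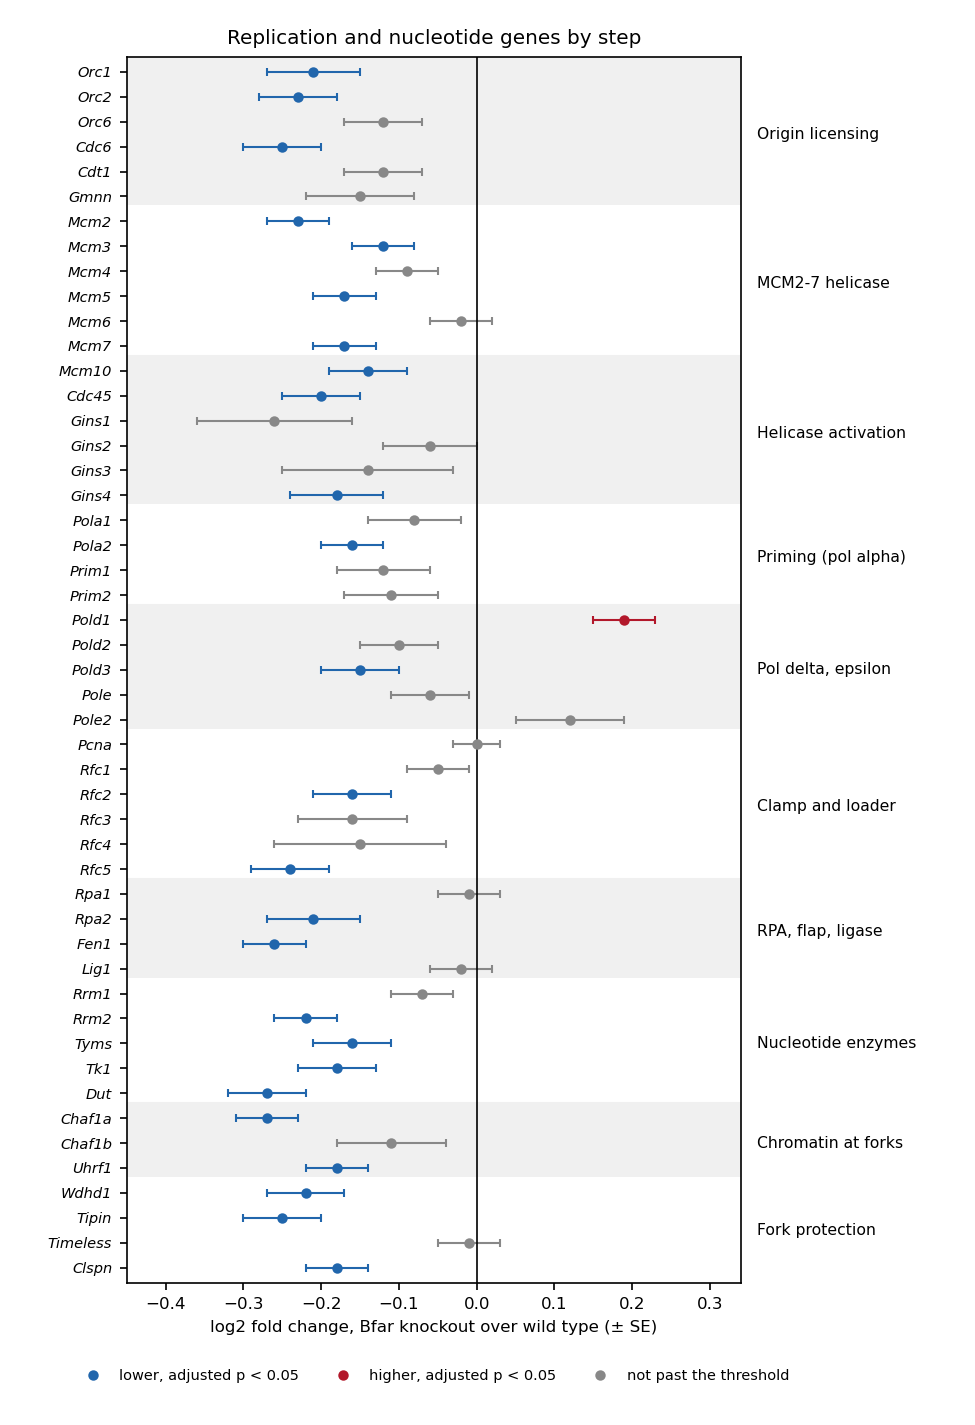
Log2 fold change, knockout over wild type, of each of the 49 genes, grouped by step from licensing at the top to fork protection at the bottom; bars are ± SE of the edgeR fit (n = 2 libraries per genotype). Blue points fell (25 genes), the red point rose (Pold1) and grey points did not pass the threshold; values lie between -0.27 and 0.19.

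Levels and depth differed widely among the 49 genes. Mean FPKM over the 4 libraries ran between 5.74 (Gins3) and 347 (Pcna), and 48 of the 49 lay above the median of all tested genes. The shares of all genes tested therefore include many genes with lower levels, in which differences this small are harder to call. No share over genes of like level was computed. Between 202 and 8566 counts stood behind each value, and the SE of the log2 fold change was between 0.03 and 0.11. The largest SEs, 0.10 and 0.11, belonged to Gins1, Gins3 and Rfc4, which are among the lowest in counts.

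Because E2F factors are known regulators of this gene class, the promoter windows of the list were searched for E2F-type words. The windows run from 250 bases before to 50 bases after the RefSeq transcription start (GRCm38.p6) and were given for 40 of the 49 genes. The words were TTTCCCGC, TTTCGCGC, TTTGCCGC and TTTGGCGC, on either strand; these can overlap each other. At least 1 word was present for 16 of the 40 genes (40%), against 4.83% of the 10125 tested genes with a window. Among genes that fell it was 8 of 22 (36.4%), among those that did not pass 7 of 17 (41.2%), and Pold1, the gene that rose, also held a word. A CCAAT box (CCAAT on either strand) was present for 24 of the 40 genes (60%), against 43.1% of tested genes, and the CHR word TTTGAA for 5 (12.5%), against 14.5%. These are matches of letters, not measured binding sites. Only the exact words were counted, so a window without one can still hold a variant that differs in a base.

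Windows are shown 5′ to 3′ on the gene's strand for the 4 genes with the smallest adjusted p that have one (Chaf1a, Fen1, Mcm2 and Rrm2), and for Mcm5, Mcm6 and Pold1, which were chosen after their values were seen because they fell, did not pass and rose while all holding E2F words. Capitals mark E2F words and CCAAT boxes. They lie at chr17:56040166-56040465 (plus strand), chr19:10204344-10204643 (minus), chr6:88898731-88899030 (minus), chr12:24708004-24708303 (plus), chr8:75109259-75109558 (plus), chr1:128359656-128359955 (minus) and chr7:44548766-44549065 (minus); Fen1 has 2 windows in the table, of which the first is shown.
Chaf1a: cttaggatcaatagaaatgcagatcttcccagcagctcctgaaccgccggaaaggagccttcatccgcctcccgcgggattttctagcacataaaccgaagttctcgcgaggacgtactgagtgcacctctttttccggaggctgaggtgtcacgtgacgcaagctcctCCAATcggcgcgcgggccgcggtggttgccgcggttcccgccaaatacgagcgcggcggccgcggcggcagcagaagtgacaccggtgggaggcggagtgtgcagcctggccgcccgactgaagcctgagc
Fen1: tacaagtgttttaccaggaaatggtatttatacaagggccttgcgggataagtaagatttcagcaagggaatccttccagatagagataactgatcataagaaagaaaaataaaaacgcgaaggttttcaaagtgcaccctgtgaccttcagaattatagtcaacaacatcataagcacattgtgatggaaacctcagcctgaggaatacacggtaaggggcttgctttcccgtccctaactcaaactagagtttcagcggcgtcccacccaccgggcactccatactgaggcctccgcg
Mcm2: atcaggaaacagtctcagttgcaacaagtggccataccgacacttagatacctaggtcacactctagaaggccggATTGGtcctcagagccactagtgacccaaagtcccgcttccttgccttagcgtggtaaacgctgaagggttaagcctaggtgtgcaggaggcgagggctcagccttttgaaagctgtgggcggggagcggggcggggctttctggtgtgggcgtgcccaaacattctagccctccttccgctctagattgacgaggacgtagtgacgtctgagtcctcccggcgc
Rrm2: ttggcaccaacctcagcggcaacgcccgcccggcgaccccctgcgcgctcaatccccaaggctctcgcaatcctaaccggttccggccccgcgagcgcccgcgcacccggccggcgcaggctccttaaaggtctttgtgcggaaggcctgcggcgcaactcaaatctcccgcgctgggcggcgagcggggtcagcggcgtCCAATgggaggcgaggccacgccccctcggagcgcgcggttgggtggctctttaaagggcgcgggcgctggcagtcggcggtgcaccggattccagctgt
Mcm5: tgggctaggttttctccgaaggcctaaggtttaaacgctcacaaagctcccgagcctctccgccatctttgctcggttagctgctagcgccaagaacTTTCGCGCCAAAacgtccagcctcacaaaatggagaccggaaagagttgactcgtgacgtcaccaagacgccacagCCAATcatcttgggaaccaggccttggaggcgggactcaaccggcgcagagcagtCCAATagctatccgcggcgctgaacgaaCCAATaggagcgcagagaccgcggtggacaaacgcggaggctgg
Mcm6: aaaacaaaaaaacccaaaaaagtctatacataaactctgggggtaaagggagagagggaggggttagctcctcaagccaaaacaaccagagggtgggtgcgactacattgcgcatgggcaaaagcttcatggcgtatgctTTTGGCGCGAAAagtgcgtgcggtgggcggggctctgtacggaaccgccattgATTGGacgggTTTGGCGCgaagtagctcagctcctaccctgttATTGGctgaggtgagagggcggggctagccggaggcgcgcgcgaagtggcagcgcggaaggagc
Pold1: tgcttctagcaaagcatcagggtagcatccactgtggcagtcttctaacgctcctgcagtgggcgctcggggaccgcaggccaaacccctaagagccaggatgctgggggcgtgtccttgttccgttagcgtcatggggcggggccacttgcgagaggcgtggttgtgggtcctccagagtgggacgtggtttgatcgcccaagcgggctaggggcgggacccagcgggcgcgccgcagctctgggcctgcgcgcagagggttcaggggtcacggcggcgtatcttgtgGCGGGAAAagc
The windows of Chaf1a, Fen1, Mcm2 and Rrm2 hold none of the exact E2F words, and those of Chaf1a, Mcm2 and Rrm2 hold 1 CCAAT box each. Variants of the words were not searched. The Chaf1a window holds the unmarked stretch ccgccaaa, which differs from the counted word GCGCCAAA in its first base only. In the Mcm5 window 2 overlapping words, TTTCGCGC and GCGCCAAA, start at -153 and -149 from the start site. The Mcm6 window holds 3 words, starting at -110, -106 and -47, and 2 CCAAT boxes. In the Pold1 window the word GCGGGAAA starts at +40.

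Origin licensing factors fell or had negative values throughout, 3 of 6 passing the test as lower, against 13.2% of all genes tested. Cdc6, the ATPase that works with the origin recognition complex to load the helicase (chr11:98907709-98923942, GRCm38), had 16.02 and 15.73 FPKM in knockout cells, against 18.8 and 19.2 FPKM in wild-type cells (log2 -0.25 ± 0.05, SE; edgeR adjusted p = 0.000741). Orc1, the large ATPase subunit of the origin recognition complex, had 11.5 and 12.2 FPKM in knockout cells, against 13.5 and 14.1 FPKM in wild-type cells (log2 -0.21 ± 0.06; edgeR adjusted p = 0.0188). Orc2, another subunit of that complex, had 15.4 and 14.3 FPKM in knockout cells, against 17.6 and 18.2 FPKM in wild-type cells (log2 -0.23 ± 0.05; edgeR adjusted p = 0.00452). Both knockout libraries lay below both wild-type libraries for all 6 licensing genes, as they did for 32.6% of all genes tested. Cdt1, the partner of Cdc6 in loading, had 31.8 and 32.5 FPKM in knockout cells and 35.97 and 34.11 FPKM in wild-type cells, a difference that did not pass (log2 -0.12; edgeR adjusted p = 0.0804). Gmnn, which encodes the Cdt1 inhibitor geminin, had 31.00 and 33.04 FPKM in knockout cells and 35.7 and 35.5 FPKM in wild-type cells (log2 -0.15; adjusted p = 0.109). Orc6 had a log2 value of -0.12 (adjusted p = 0.13). The call of Orc1 was lost without knockout replicate 1 (edgeR adjusted p = 0.157), knockout replicate 2 (0.0585) or wild type replicate 2 (0.128), and that of Orc2 without knockout replicate 2 (0.0868). Annotated exons of Orc2 overlap those of Nif3l1 on the other strand over 29.8% of their length, and its value is uncertain for that reason.

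The 6 subunits of the MCM2-7 helicase form 1 ring, and 4 of the 6 RNAs fell, against 13.2% of all genes tested. Differences between subunits were not tested. Mcm2 (chr6:88883474-88898780) fell most, with 55.8 and 54.5 FPKM in knockout cells, against 64.9 and 65.3 FPKM in wild-type cells (log2 -0.23 ± 0.04; edgeR adjusted p = 0.000358). Mcm5 had 86.9 and 86.0 FPKM in knockout cells, against 96.5 and 98.4 FPKM in wild-type cells (log2 -0.17 ± 0.04; edgeR adjusted p = 0.00315). Mcm7 had 106 and 108 FPKM in knockout cells, against 120 and 123 FPKM in wild-type cells (log2 -0.17 ± 0.04; edgeR adjusted p = 0.00321). Mcm3 had the smallest called fall, with 114 FPKM in each knockout library, against 123 and 125 FPKM in wild-type cells (log2 -0.12 ± 0.04; edgeR adjusted p = 0.0209). For these 4 subunits and for Mcm4, both knockout libraries lay below both wild-type libraries, as they did for 32.6% of all genes tested. Mcm4 had a log2 value of -0.09 ± 0.04 and did not pass (adjusted p = 0.0894). Mcm6, the most abundant of the ring per length (chr1:128331575-128359705), overlapped between the groups, with 127 and 131 FPKM in knockout cells and 130 and 132 FPKM in wild-type cells (log2 -0.02 ± 0.04; adjusted p = 0.745). The FPKM ratio of Mcm6 to Mcm2 was 2.28 and 2.40 in knockout cells, against 2.003 and 2.03 in wild-type cells; this pair was chosen after its values were seen and was not tested. Mcm3 lost its call with any library left out (edgeR adjusted p between 0.0646 and 0.136), Mcm5 without knockout replicate 2 (0.0542) and Mcm7 without knockout replicate 1 (0.0532).

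**Figure D2:**
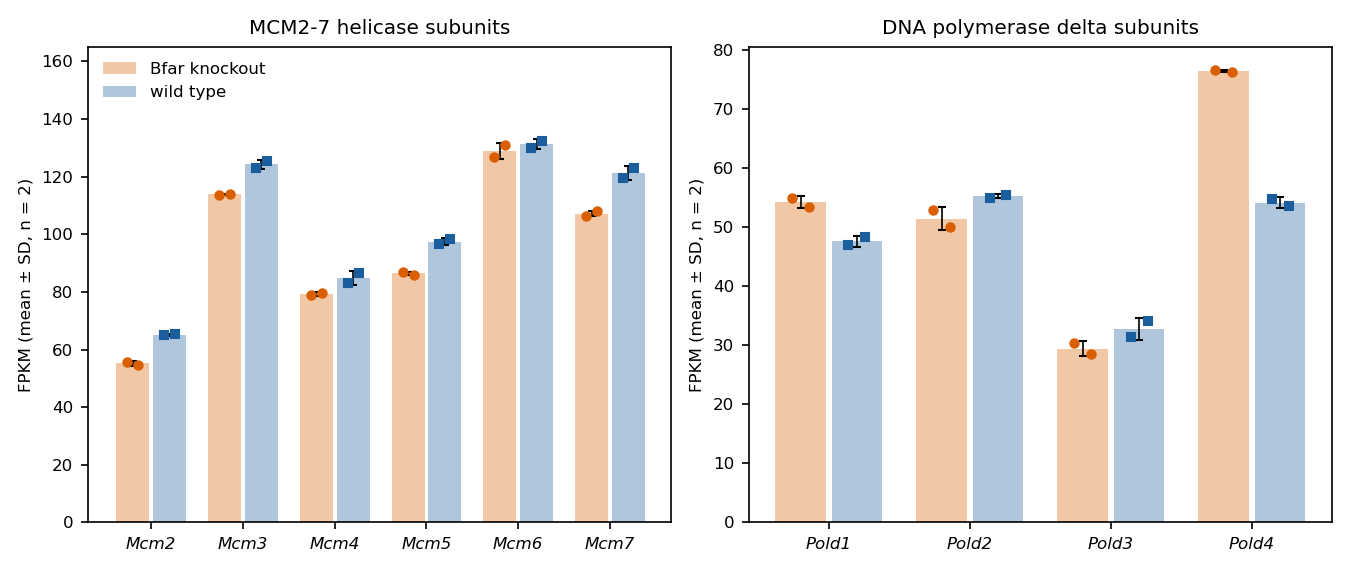
FPKM of the MCM2-7 subunits (left) and of the DNA polymerase delta subunits (right) in knockout and wild-type cells; bars are means ± SD over 2 libraries and points are libraries. Mcm2 stands at 55.8 and 54.5 FPKM in knockout cells against 64.9 and 65.3 in wild-type cells while the Mcm6 groups overlap, and Pold1 and Pold4 are higher in knockout cells while Pold3 is lower.

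Among the 6 factors that activate the helicase, 3 fell, against 13.2% of all genes tested. Cdc45, the partner of MCM2-7 and GINS in the active helicase, had 28.3 and 28.9 FPKM in knockout cells, against 33.3 and 32.8 FPKM in wild-type cells (log2 -0.20 ± 0.05; edgeR adjusted p = 0.00654). Gins4 had 24.0 and 24.4 FPKM in knockout cells, against 27.7 and 27.3 FPKM in wild-type cells (log2 -0.18 ± 0.06; edgeR adjusted p = 0.0463). Mcm10, which acts as origins are opened, had 18.6 and 18.3 FPKM in knockout cells, against 19.8 and 21.0 FPKM in wild-type cells (log2 -0.14 ± 0.05; edgeR adjusted p = 0.0483). For these 3 genes and Gins1 both knockout libraries lay below both wild-type libraries, as for 32.6% of all genes tested. Gins4 and Mcm10 stood close to the threshold. Of the other GINS subunits, Gins1 had the lowest log2 value among the members of the list that did not pass, -0.26 ± 0.10 (edgeR adjusted p = 0.0658), on 10.1 and 9.80 FPKM in knockout cells and 12.5 and 11.8 FPKM in wild-type cells. The groups overlapped for Gins2, with 34.4 and 36.2 FPKM in knockout cells and 38.1 and 35.6 FPKM in wild-type cells (log2 -0.06), and for Gins3, with 6.13 and 4.78 FPKM in knockout cells and 5.86 and 6.18 FPKM in wild-type cells (log2 -0.14 ± 0.11, and 0.03 without knockout replicate 2). Exons of Gins2 overlap those of Gse1 on the other strand over 67.3% of their length. Gins1 passed in limma on log2(FPKM + 0.1) (adjusted p = 0.0269). Leaving out any library ended the calls of Gins4 (edgeR adjusted p between 0.126 and 0.183) and Mcm10 (0.0588 to 0.331), and Cdc45 did not pass without knockout replicate 1 (0.0669) or knockout replicate 2 (0.0529).

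Of the 4 subunits of polymerase alpha-primase, which starts every new strand, 1 fell, against 13.2% of all genes tested. Pola2, the accessory B subunit, had 38.3 and 39.0 FPKM in knockout cells, against 42.3 and 44.6 FPKM in wild-type cells (log2 -0.16 ± 0.04; edgeR adjusted p = 0.0136), and did not pass without knockout replicate 1 (0.117), knockout replicate 2 (0.0848) or wild type replicate 2 (0.152). Prim1, the catalytic primase subunit, had 30.1 and 29.2 FPKM in knockout cells and 31.2 and 33.6 FPKM in wild-type cells (log2 -0.12; adjusted p = 0.135). Prim2, the large primase subunit, had a log2 value of -0.11 (adjusted p = 0.149) and Pola1, the catalytic subunit, of -0.08 (adjusted p = 0.307), with overlapping groups for Pola1 only.

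Of the 5 subunits of the polymerases that copy the strands, 1 fell and 1 rose, against 13.2% and 13.6% of all genes tested. Pold1, the catalytic subunit of polymerase delta (chr7:44532744-44548815), was the only one of the 49 genes that rose, with 55.0 and 53.5 FPKM in knockout cells, against 47.0 and 48.3 FPKM in wild-type cells (log2 0.19 ± 0.04; edgeR adjusted p = 0.00212). Its accessory subunit Pold3 fell, with 30.4 and 28.6 FPKM in knockout cells, against 31.4 and 34.1 FPKM in wild-type cells (log2 -0.15 ± 0.05; edgeR adjusted p = 0.0423). Pold2, the B subunit, had 52.9 and 50.1 FPKM in knockout cells and 55.0 and 55.5 FPKM in wild-type cells and did not pass (log2 -0.10; adjusted p = 0.133). The FPKM ratio of Pold1 to Pold2, a pair chosen after its values were seen and not tested, was 1.04 and 1.07 in knockout cells, against 0.854 and 0.870 in wild-type cells. Pold4, the smallest subunit of the same enzyme and no member of the 49, rose more than Pold1, with 76.7 and 76.4 FPKM in knockout cells, against 54.9 and 53.6 FPKM in wild-type cells (log2 0.51 ± 0.05; edgeR adjusted p = 3.91e-06). For polymerase epsilon, neither Pole, the catalytic subunit (log2 -0.06; adjusted p = 0.384), nor Pole2 passed; Pole2 had 17.0 and 17.3 FPKM in knockout cells and 15.6 and 16.1 FPKM in wild-type cells (log2 0.12 ± 0.07; adjusted p = 0.239). Pold3 lost its call without knockout replicate 1 (edgeR adjusted p = 0.0952), knockout replicate 2 (0.315) or wild type replicate 2 (0.37).

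Pcna, the sliding clamp that tethers polymerases and many other fork enzymes to DNA, was the most abundant of the 49 genes and hardly differed, with 347 and 346 FPKM in knockout cells and 348 and 349 FPKM in wild-type cells (adjusted p = 0.971; SE of the log2 value 0.03). The loader that opens the clamp has 5 subunits, of which 2 fell, against 13.2% of all genes tested. Rfc5 had 28.9 and 30.5 FPKM in knockout cells, against 35.3 and 35.1 FPKM in wild-type cells (log2 -0.24 ± 0.05; edgeR adjusted p = 0.00328). Rfc2 had 47.9 and 49.2 FPKM in knockout cells, against 52.9 and 55.8 FPKM in wild-type cells (log2 -0.16 ± 0.05; edgeR adjusted p = 0.0245). For Pcna, Rfc1, Rfc2, Rfc3 and Rfc5 both knockout libraries lay below both wild-type libraries, as for 32.6% of all genes tested. Rfc3 had -0.16 ± 0.07 on the log2 scale (adjusted p = 0.106), Rfc4 -0.15 ± 0.11 (0.315) and Rfc1, the largest subunit, -0.05 ± 0.04 (0.368). Wild type replicate 2 decided the Rfc4 value, with 13.7 and 13.1 FPKM in knockout cells and 13.2 and 16.6 FPKM in wild-type cells: without that library its log2 value was 0.02, and without wild type replicate 1 it was -0.31 (edgeR adjusted p = 0.0491). Rfc5 did not pass without knockout replicate 1 (0.0614), nor Rfc2 without knockout replicate 1 (0.162), knockout replicate 2 (0.0956) or wild type replicate 2 (0.215).

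**Figure D3:**
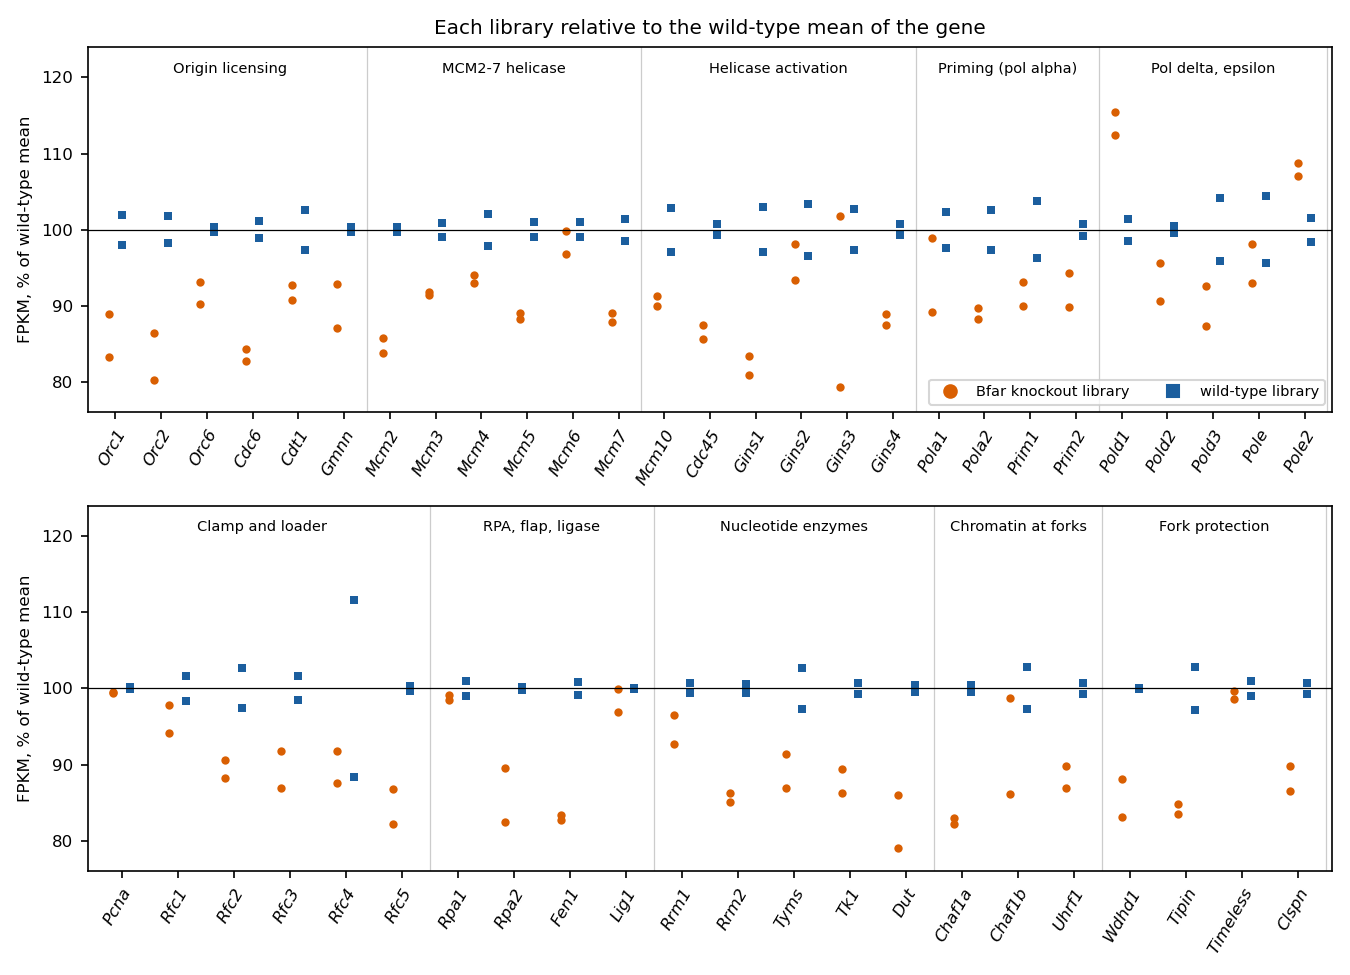
FPKM of each gene in each library as a percent of its wild-type mean, by step; orange circles are knockout libraries and blue squares wild-type libraries (2 each). Knockout libraries lie below both wild-type libraries for 38 of the 49 genes and above them for Pold1 and Pole2; Pcna, Rpa1, Lig1 and Timeless stay near 100.

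Of the 4 genes of single-strand protection and lagging-strand maturation, 2 fell, against 13.2% of all genes tested. Differences between partners were not tested. Fen1, the nuclease that trims the flaps of Okazaki fragments (chr19:10199132-10204393), had 45.2 and 44.9 FPKM in knockout cells, against 53.8 and 54.8 FPKM in wild-type cells (log2 -0.26 ± 0.04; edgeR adjusted p = 0.000309). Lig1, the ligase that seals the nick Fen1 leaves, had 83.9 and 81.4 FPKM in knockout cells and 84.0 FPKM in each wild-type library (log2 -0.02 ± 0.04; adjusted p = 0.768). Rpa2, the middle subunit of the single-strand binding protein RPA, had 26.5 and 28.7 FPKM in knockout cells, against 32.1 and 32.0 FPKM in wild-type cells (log2 -0.21 ± 0.06; edgeR adjusted p = 0.0103). Its partner Rpa1, the large DNA-binding subunit, overlapped between groups, with 75.6 and 75.1 FPKM in knockout cells and 75.4 and 77.0 FPKM in wild-type cells (log2 -0.01 ± 0.04; adjusted p = 0.854). Rpa2 did not pass without knockout replicate 1 (edgeR adjusted p = 0.126), wild type replicate 1 (0.0613) or wild type replicate 2 (0.0515).

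Of the 5 enzymes that supply deoxynucleotides 4 fell, against 13.2% of all genes tested, and for all 5 both knockout libraries lay below both wild-type libraries, against 32.6% of all genes. Dut, the dUTPase that keeps uracil out of DNA and yields the precursor of thymidylate (chr2:125247248-125259049), had the lowest log2 value of the called genes, with 43.1 and 39.6 FPKM in knockout cells, against 49.8 and 50.3 FPKM in wild-type cells (log2 -0.27 ± 0.05; edgeR adjusted p = 0.000481). Rrm2, the small subunit of ribonucleotide reductase whose level follows S phase (chr12:24708254-24714146), had 123 and 122 FPKM in knockout cells, against 142 and 144 FPKM in wild-type cells (log2 -0.22 ± 0.04; edgeR adjusted p = 0.000424). Rrm1, its large subunit, had 84.1 and 87.5 FPKM in knockout cells and 91.3 and 90.1 FPKM in wild-type cells and did not pass (log2 -0.07 ± 0.04; adjusted p = 0.158). Tk1, the S-phase thymidine kinase, had 51.6 and 49.8 FPKM in knockout cells, against 58.2 and 57.3 FPKM in wild-type cells (log2 -0.18 ± 0.05; edgeR adjusted p = 0.00968). Tyms, thymidylate synthase, had 20.9 and 19.9 FPKM in knockout cells, against 22.2 and 23.5 FPKM in wild-type cells (log2 -0.16 ± 0.05; edgeR adjusted p = 0.0233). Tyms shares 9.48% of its 31-base words with other listed genes, chiefly the pseudogene Tyms-ps. Tk1 did not pass without knockout replicate 2 (0.101) or wild type replicate 1 (0.0772), and Tyms without knockout replicate 1 (0.0657), knockout replicate 2 (0.198) or wild type replicate 2 (0.211).

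Of the 3 genes that restore chromatin behind the fork, 2 fell, against 13.2% of all genes tested. Chaf1a, the large subunit of the histone chaperone CAF-1 (chr17:56040416-56068026), had the smallest adjusted p of the 49 genes, with 34.9 and 34.5 FPKM in knockout cells, against 42.2 and 41.9 FPKM in wild-type cells (log2 -0.27 ± 0.04; edgeR adjusted p = 0.000169). Its exons overlap those of Ubxn6 on the other strand over 52.5% of their annotated length, and whether the counting used strand is not given in the sources used here. Chaf1b, the second CAF-1 subunit, overlapped between groups, with 23.7 and 20.7 FPKM in knockout cells and 24.7 and 23.4 FPKM in wild-type cells (log2 -0.11 ± 0.07; adjusted p = 0.256). Uhrf1, which directs maintenance DNA methylation to new strands, had 91.5 and 94.5 FPKM in knockout cells, against 105 and 106 FPKM in wild-type cells (log2 -0.18 ± 0.04; edgeR adjusted p = 0.00246). Without knockout replicate 1 the Uhrf1 value did not pass (adjusted p = 0.0519).

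Fork protection factors fell in 3 of 4 cases, against 13.2% of all genes tested. Tipin had 27.9 and 27.5 FPKM in knockout cells, against 32.0 and 33.9 FPKM in wild-type cells (log2 -0.25 ± 0.05; edgeR adjusted p = 0.00279). Timeless, with which Tipin forms a heterodimer at the fork, overlapped between groups, with 22.2 and 22.4 FPKM in knockout cells and 22.3 and 22.7 FPKM in wild-type cells (log2 -0.01 ± 0.04; adjusted p = 0.897). Their FPKM ratio, Timeless to Tipin, was 0.795 and 0.815 in knockout cells, against 0.696 and 0.672 in wild-type cells, again a pair chosen after its values were seen. Wdhd1, which links polymerase alpha to the helicase, had 15.98 and 16.93 FPKM in knockout cells, against 19.2 FPKM in each wild-type library (log2 -0.22 ± 0.05; edgeR adjusted p = 0.00336). Clspn, the checkpoint mediator claspin, had 17.2 and 16.6 FPKM in knockout cells, against 19.27 and 19.00 FPKM in wild-type cells (log2 -0.18 ± 0.04; edgeR adjusted p = 0.00801). Tipin did not pass without knockout replicate 2 (0.0588), Wdhd1 without knockout replicate 1 (0.0632), and Clspn without knockout replicate 2 (0.0963) or wild type replicate 1 (0.0671).

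Other genes of the same processes were examined as lists. Of 39 further replication genes 9 fell (23.1%) and 2 rose, with a median log2 fold change of -0.06, beside 13.2% and 13.6% over all genes tested. Top1, which relieves torsion ahead of the fork, had 43.1 and 42.5 FPKM in knockout cells, against 50.3 and 51.2 FPKM in wild-type cells (log2 -0.24 ± 0.04; edgeR adjusted p = 0.000341). Recql4, a helicase needed for origin firing, had a log2 value of -0.37 ± 0.06 (edgeR adjusted p = 0.000424), and Rif1, a regulator of replication timing, of -0.22 ± 0.04 (adjusted p = 0.00138), which did not pass without knockout replicate 2 (0.05). Pold4 is described above, and the other gene that rose was Atr, the kinase of the replication checkpoint (log2 0.28; adjusted p = 0.00205), named because only 2 rose.

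Of 12 genes of de novo purine synthesis 7 fell (58.3%) and none rose, with a median of -0.15, beside 13.2% lower and 13.6% higher over all genes tested. Gart, a trifunctional enzyme of that pathway, had 45.2 and 45.5 FPKM in knockout cells, against 55.8 and 55.6 FPKM in wild-type cells (log2 -0.29 ± 0.04; edgeR adjusted p = 6.49e-05). Ppat, the first committed enzyme, fell by 0.24, Impdh2, of guanine nucleotide synthesis, by 0.19, and Atic, the last enzyme to inosine monophosphate, by 0.18 on the log2 scale; Atic did not pass without knockout replicate 2 (adjusted p = 0.057). Of 6 genes of pyrimidine synthesis 3 fell and 1 rose. Cad, which carries the first 3 steps of the pathway, had 41.0 and 42.8 FPKM in knockout cells, against 50.1 and 49.3 FPKM in wild-type cells (log2 -0.24 ± 0.04; edgeR adjusted p = 0.000263). The CTP synthase gene Ctps fell by 0.29 and Umps by 0.25 on the log2 scale, while Ctps2, a paralog of Ctps, rose by 0.27 (adjusted p = 0.013). Umps did not pass without knockout replicate 2 (0.0542), nor Ctps2 without knockout replicate 2 (0.154) or wild type replicate 2 (0.0768).

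Of 16 genes of deoxynucleotide handling and salvage, 6 fell (37.5%) and 1 rose, beside 13.2% lower and 13.6% higher over all genes. That gene was Samhd1, the hydrolase that degrades deoxynucleoside triphosphates, with 41.8 and 42.9 FPKM in knockout cells, against 28.3 and 29.0 FPKM in wild-type cells (log2 0.57 ± 0.04; edgeR adjusted p = 1.28e-07). Nme1, a nucleoside diphosphate kinase, had 99.97 and 98.29 FPKM in knockout cells, against 120.1 and 122.9 FPKM in wild-type cells (log2 -0.29 ± 0.04; edgeR adjusted p = 0.000107). The thymidylate kinase gene Dtymk fell by 0.21 and the adenosine kinase gene Adk by 0.23 on the log2 scale. Dtymk did not pass without knockout replicate 2 (0.0719) or wild type replicate 1 (0.0553), nor Adk without knockout replicate 1 (0.0673), knockout replicate 2 (0.0695) or wild type replicate 2 (0.0686).

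Among 21 genes of E2F and Rb control 7 fell (33.3%) and 1 rose, with a median of -0.11; over all genes tested 13.2% fell and 13.6% rose. Rbl2, which encodes the pocket protein p130 of quiescent cells, had 16.6 and 18.0 FPKM in knockout cells, against 28.4 and 27.7 FPKM in wild-type cells (log2 -0.69 ± 0.05; edgeR adjusted p = 6.37e-08). Tfdp1, the dimer partner of E2F factors, had 100.2 and 99.7 FPKM in knockout cells, against 119.6 and 124.5 FPKM in wild-type cells (log2 -0.28 ± 0.04; edgeR adjusted p = 6.78e-05). Cdc25a, a phosphatase that activates Cdk2, fell by 0.32 on the log2 scale (adjusted p = 9.57e-05), and Ccne1, the G1/S cyclin, had 21.8 and 21.1 FPKM in knockout cells, against 29.2 and 29.8 FPKM in wild-type cells. Rb1, the single gene of these that rose, had a log2 value of 0.17 (adjusted p = 0.00833) and was named because no other rose. Of 24 mitosis genes 7 fell (29.2%, beside the same 13.2%) and 1 rose, with a median of -0.06. Plk1, Cdc20 and Ccnb1, which drive entry into and exit from mitosis, fell by 0.30, 0.26 and 0.23 on the log2 scale, and Bub1, of the spindle checkpoint, rose by 0.18 (adjusted p = 0.0129). Ccnb1 did not pass without knockout replicate 2 (0.0592), nor Bub1 without knockout replicate 1 (0.0527), knockout replicate 2 (0.127) or wild type replicate 1 (0.137). Differences between the lists were not tested.

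**Figure D4:**
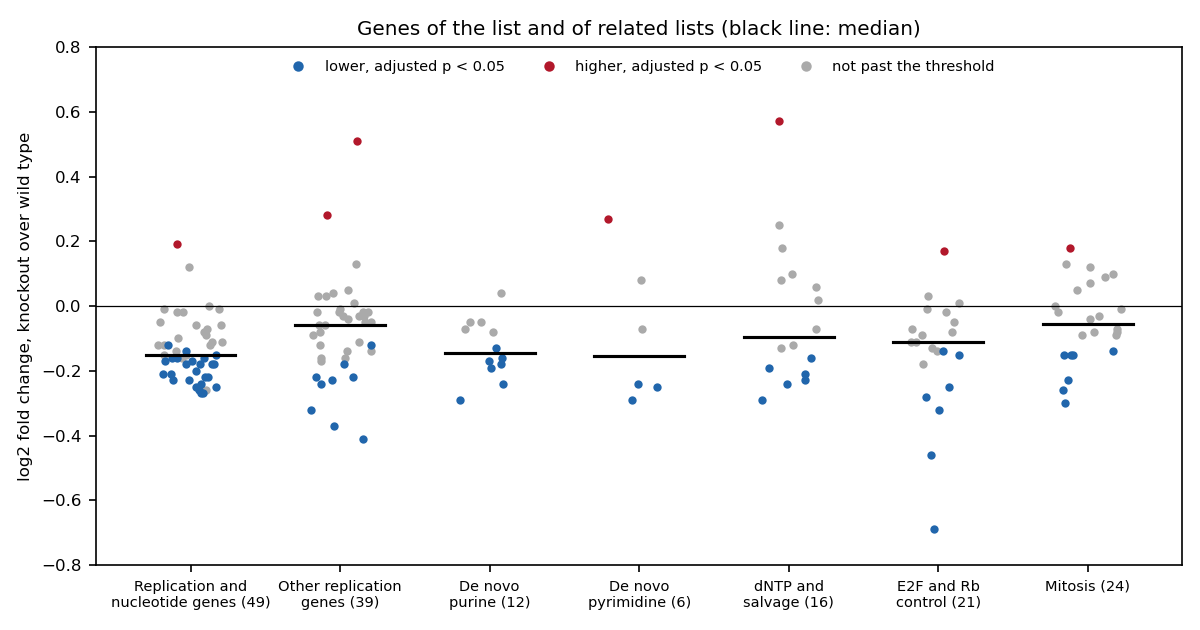
Log2 fold change, knockout over wild type, of the 49 replication and nucleotide genes and of 6 related lists; each point is a gene, the black line is the median of the list, and the number of genes tested stands in parentheses. Medians lie between -0.16 and -0.06, and genes that rose are few in each list, Samhd1 (0.57) and Pold4 (0.51) the highest.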

How the data were processed

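The submitters' processing notes name Bowtie, RSEM and the build GRCm38 (mm10), with no versions. Per the file headers, a deposited table holds an expected count (RSEM's estimate, often fractional), an FPKM value scaled by the authors to transcript length and depth, and a gene length, which served no test. The sources used here give no strand setting or annotation release. A gene missing from a table was set to 0.

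Expected counts were rounded and tested over the whole table with edgeR 4.0.16 in R 4.3.3. The fit used TMM, filterByExpr with minimum count 10 and minimum total 15, and genotype only. Its quasi-likelihood test was two-sided, with Benjamini-Hochberg at 0.05, and 12677 genes were tested. The common coefficient of variation between libraries of a group, beyond counting error, was 2.89%, and it may be technical. The SE is the absolute log2 fold change over the square root of F. Levels are the deposited FPKM. limma 3.58.1 and DESeq2 1.42.0 served as alternatives, beside other factors, filters, pseudocounts, a replicate block and each library left out. A floor of 3 counts equals 0.152 to 0.157 CPM, which covers counting error only. Sequence sharing (31-mers, limit 20%) and exon overlap (limit 20%) used GENCODE M21 transcripts; no member had a near-identical copy and 3 had an overlap. Promoters and positions are from RefSeq GRCm38.p6.

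The members, steps, lists and tests were chosen with earlier results of these data known. Named by rule were all members, with library values for called members and for the 2 most abundant of each step. Up to 4 called genes of each other list with the smallest adjusted p were also named by rule. Library values of Gins1, Gins3, Pole2, Rfc4 and Chaf1b are given outside this rule. Other choices outside the rule are marked where they stand. Protein sequences were not used here.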

Additional observations from a re-analysis of the deposited data

How the results depend on the processing

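Under 12 other settings 39 of the 49 genes stayed negative in every one. The count of genes that fell, 25 as reported, was 12 in DESeq2, 16 without the low-count filter, 2 with limma on unfiltered log2(FPKM + 0.1), where none rose (0), and between 11 and 20 with each library left out. It was 23 with the 3 genes that overlap another gene left out. The median stayed between -0.12 and -0.18 with each library left out. All genes called, 3398 as reported, numbered 1569 with DESeq2, 1928 with no filter, 259 with unfiltered FPKM and between 1441 and 2355 with each library left out. For the related lists, settings added after the data were seen gave 24 genes lower and 3 higher with DESeq2 (39 and 6 as reported), 5 and 2 with unfiltered FPKM, 2 higher with limma on log2(FPKM + 0.1) and 2 on log2(FPKM + 1), and between 18 and 28 lower and between 2 and 5 higher with each library left out. The labels do not say whether libraries with the same replicate number were paired. The correlation of same-numbered deviations was 0.00673 over 12677 genes, which does not settle it. With the replicate block 26 genes fell, Mcm4 (edgeR adjusted p = 0.0413) among them, and 1 rose. All genes called then numbered 3952, and the related lists gave 45 genes lower and 8 higher. The sign turned for 5 genes that had not passed, and Lig1, Pcna and Rpa1 reached at most 0.01. With each library left out, Mcm6 lay between -0.04 and 0.01, Gins3 between -0.33 and 0.03, Pole between -0.12 and 0.01, Rfc4 between -0.31 and 0.02, and Timeless between -0.03 and 0.01. The cause of these changes was not tested. At this depth and with 2 libraries per genotype the smallest difference among the 49 genes that passed was -0.12 on the log2 scale.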
